A study of Homo sapiens with 6 samples.

Results

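Messenger RNA levels of 10 genes of NAD metabolism were followed in human RPE-1 cells depleted of the splicing factor SON: the ectoenzyme genes BST1 and CD38, the NAD hydrolase gene SARM1, and the genes NAMPT, NAPRT, NMNAT1, NMNAT2, NMNAT3, NADSYN1 and NNMT. They were chosen by gene name from the 58735 genes of the deposited count table. The group was assembled with the fold changes of the same contrast known, the rise of BST1 in particular, so the fold changes of the 10 genes are given as descriptions and without p-values. RPE-1 is an established line of retinal pigment epithelial origin, here carrying CETN2 tagged with GFP to mark centrioles and PLK4, the kinase that starts centriole duplication, under an rtTA-driven doxycycline-inducible promoter. The siSON group (3 libraries) received an siRNA against SON, and the siControl group (3 libraries) received a scramble siRNA. Both groups were given doxycycline at 1 µg/mL to induce PLK4, so every value below was measured with PLK4 induced. The labels do not say whether the libraries of a group came from separate cultures, so p-values measure only the spread between these libraries, which may be technical.

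NAD is an electron carrier and also a substrate that is consumed. It is made from nicotinamide, from nicotinic acid, from nicotinamide riboside or from tryptophan. NAMPT carries out the rate-limiting step from nicotinamide, NAPRT the matching step from nicotinic acid, the 3 NMNAT enzymes join the mononucleotide to ATP, and NADSYN1 amidates the product of the nicotinic acid and tryptophan routes. BST1 (CD157) and CD38 are cell-surface enzymes of the ADP-ribosyl cyclase family, best known from bone marrow stroma and leukocytes, that split NAD or its precursors. SARM1 is the NAD hydrolase that drives axon degeneration, and NNMT methylates nicotinamide and so removes it from salvage.

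Library totals ran from 54572365 to 69764836 counts. CPM values below are read counts scaled to a common library size with TMM factors (trimmed mean of M values, which correct for composition). The smallest level taken as visible, 3 counts in a library, was 0.0402 to 0.059 CPM; intervals and floors of this kind cover counting error only. SON itself, the target of the siRNA, had 295.3, 312.7 and 283.9 CPM in siControl and 67.96, 69.96 and 65.0 CPM in siSON, leaving 22.8% of the control level. Of 16591 genes tested across the table, 71.7% were called changed (the quasi-likelihood test of edgeR, with an adjusted p below 0.05), and the 3 libraries of one group did not overlap those of the other for 75.1%. Of 10 pigment epithelium markers, TTR and TYR had 0 counts in all 6 libraries, RPE65 and RLBP1 averaged at most 0.144 CPM in either group, and 6 were tested, with 3 higher, 3 lower and a median log2 fold change of -0.39. OTX2, MITF and BEST1 rose (19.9 to 35.2, 21.7 to 31.1 and 8.13 to 12.5 CPM), and PMEL, LRAT and SERPINF1 fell (2.06 to 0.2, 0.433 to 0.0692 and 0.877 to 0.36 CPM). The sum of the 10, 52.3 to 54.2 CPM in siControl and 74.4 to 83.6 CPM in siSON, thus rests mainly on the 3 that rose. Of 6 keratin and epithelial markers, KRT18 rose (220 to 615 CPM), KRT7 fell (23.4 to 13.9 CPM), and KRT19, EPCAM and CDH1 averaged at most 0.158 CPM. KRT8 rose from 594 to 754 CPM, a call lost under library size alone (0.15) and turned to -0.07 under cyclic loess. The sum of these 6, 784 to 889 CPM in siControl and 1343 to 1408 CPM in siSON, came almost only from KRT8 and KRT18. The annotated spans of KRT8 and KRT18 overlap on opposite strands. The strand setting of the counting was not stated, so reads from that stretch cannot be told apart. The part of these markers in the results below was not tested. In such bulk samples fewer cells of a type and less RNA per cell cannot be told apart.

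The 10 genes fell into 3 patterns after SON depletion. BST1, NNMT, NAMPT and NMNAT1 were higher, NADSYN1, SARM1 and NAPRT were lower, and NMNAT2, CD38 and NMNAT3 showed no called change. The filter on low counts kept 8 of the 10, and CD38 and NMNAT3 did not pass it. Of these 8, 7 were called, beside 71.7% of all genes tested. There were 4 higher and 3 lower, beside 35.2% and 36.5% of all genes tested. The groups did not overlap for 7 of the 8, again 4 higher and 3 lower, beside 36.9% and 38.2% of all genes tested. Their median log2 fold change was 0.29, and that of all genes tested was -0.03. Because the genes were chosen with this contrast known, these counts describe the group and support nothing further.

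**Figure D1:**
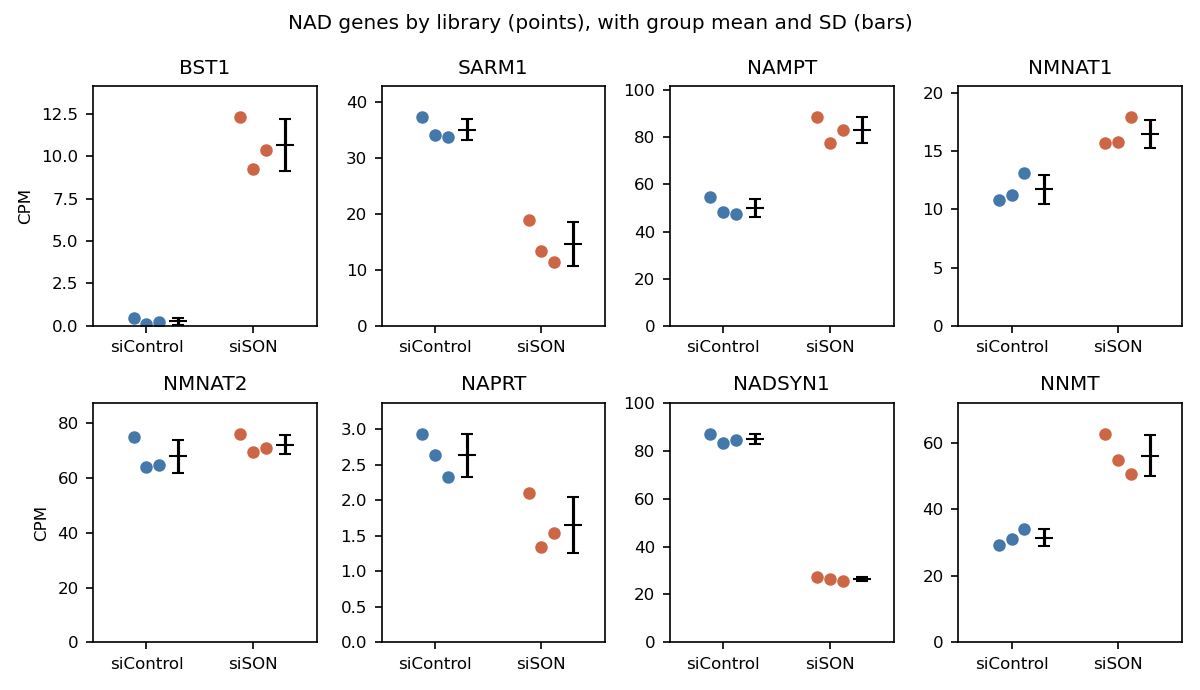
CPM in each library for the 8 NAD genes that passed the filter; each point is a library, blue for siControl and orange for siSON, and the black bars show the group mean and SD over 3 libraries on an axis from 0. BST1 lies under 0.5 CPM in all siControl libraries and between 9.249 and 12.29 CPM in siSON, NADSYN1 drops from above 83 to below 28 CPM, and the groups overlap for NMNAT2.

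BST1 was close to silent in the control cells. BST1 (ENSG00000109743; GRCh38 chromosome 4, 15702950 to 15738313, plus strand, 9 exons in its principal transcript) had 34, 6 and 17 counts in siControl replicates 1 to 3 and 713, 477 and 527 counts in siSON replicates 1 to 3. These counts corresponded to 0.4873, 0.09437 and 0.2275 CPM in siControl and to 12.29, 9.249 and 10.37 CPM in siSON. The lowest siSON library was many times above the highest siControl library, and replicate 1 was the highest of its group in both. The estimated log2 fold change of BST1 was 5.27 (SE 0.32), a 38.7-fold rise, and it ranked 12 from the top among the 16591 genes tested. The size of that fold rests on few control counts: without siControl replicate 1, which held 34 of them, the log2 fold change was 5.96. Per kilobase of annotated exon, the level of BST1 went from 0.0905 ± 0.0671 to 3.57 ± 0.515 RPKM (SD, n = 3 each).

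BST1 and CD38 are neighbouring paralogs on the same strand of chromosome 4, separated by 39961 bases. CD38 (ENSG00000004468; chromosome 4, 15778275 to 15853230, 8 exons) had 0, 0 and 0 counts in siControl and 2, 0 and 1 counts in siSON. No library reached the floor of 3 counts, and the 3 counts of the siSON group together are at the floor over the group (0.0175 CPM), so no fold was computed and a change of CD38 was not detectable at this depth. Within 500 kb of BST1, 6 of 19 annotated genes were tested, BST1 among them, and the other 5 had log2 fold changes between -1.65 and 0.35. FAM200B, which shares its last 2616 bases of span with the start of BST1 on the same strand, fell from 30.2 ± 0.899 to 21.3 ± 1.68 CPM (mean and SD of 3 libraries; log2 change -0.51, SE 0.08, edgeR adjusted p 0.00012). The exons of FAM200B and BST1 share 51 bases, 1.71% of the exon length of BST1. FBXL5, a ubiquitin ligase subunit that senses iron, fell by 0.16 on the log2 scale (SE 0.05, edgeR adjusted p 0.0187), a call that was lost in each of the fits without siControl replicate 3, siSON replicate 2 or siSON replicate 3 (-0.16, -0.13 and -0.15) and with no filter on low counts (-0.16). TAPT1 rose by 0.35 (SE 0.12, edgeR adjusted p 0.0256), although its groups overlapped and the call was lost without siControl replicate 1 (0.20), siSON replicate 2 (0.32) or siSON replicate 3 (0.30). Scaling by library size alone (0.15) and a mean count of at least 50 (0.29) also ended it. Its antisense gene TAPT1-AS1 had a log2 fold change of -1.65 (SE 0.40, edgeR adjusted p 0.00339; not called under cyclic loess, at -0.88), and CC2D2A, a gene of the ciliary transition zone, had 0.15 (SE 0.07, edgeR adjusted p 0.0741) and was called without siSON replicate 2, at 0.21, and with the replicate block, at 0.15. TAPT1 and TAPT1-AS1 overlap at their starts, and the strand setting of the counting was not stated, so reads from that stretch cannot be told apart.

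**Figure D2:**
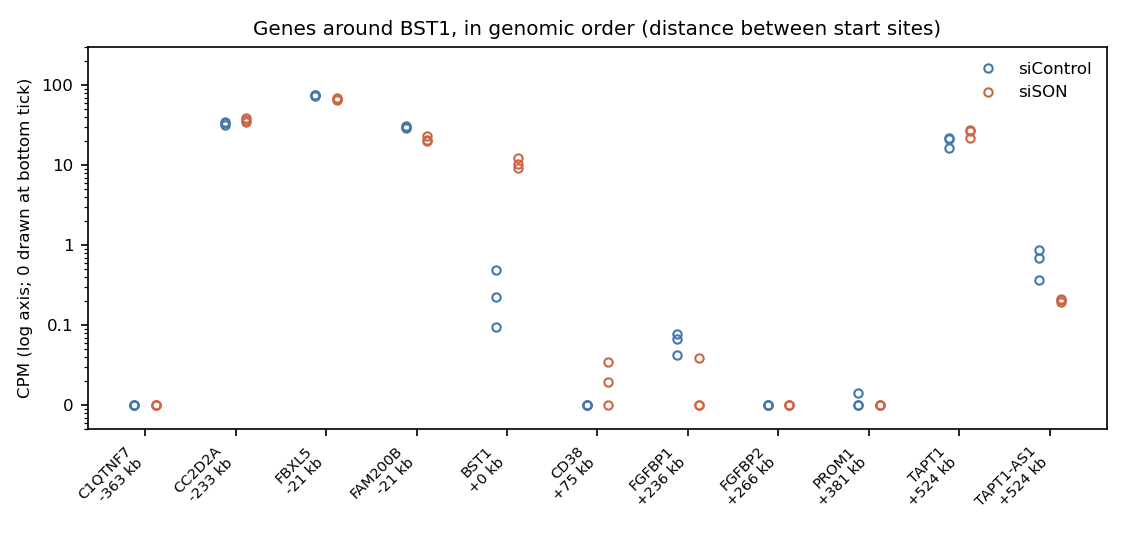
CPM on a log axis for the protein-coding and tested genes within 500 kb of BST1, in genomic order with the distance between start sites; each open circle is 1 library (blue siControl, orange siSON), and libraries with 0 counts are drawn at the bottom tick. BST1 lies under 0.5 CPM in siControl and above 9 CPM in siSON, CD38 stays at 0 to 2 counts, and FAM200B just upstream is lower in siSON.

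The 3 genes whose centred log2 CPM profile over the 6 libraries lay nearest to that of BST1 were OR2K2, AC100847.1 and SYNDIG1L, at root mean square differences of 0.51, 0.52 and 0.61 on the log2 scale. They too were near 0 in control cells. OR2K2, an olfactory receptor gene, had 3, 0 and 0 counts in siControl and 65, 48 and 47 in siSON. AC100847.1 had 3, 0 and 0 counts in siControl and 65, 46 and 47 in siSON, almost the same counts as OR2K2 although the genes lie on chromosomes 18 and 9. SYNDIG1L had 0 counts in all siControl libraries and 121, 71 and 67 counts in siSON. The likeness rests mainly on the step between the groups.

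BST1 and CD38 are best known from blood and stromal cells, so leukocyte markers were examined beside them. Among 10 leukocyte markers, CD3E, MS4A1 and MPO had 0 counts in all 6 libraries. The summed level of the 10 was 3.71 to 4.13 CPM in the siControl libraries and at most 1.97 CPM in the siSON libraries. The 3 that were tested, PTPRC, LYZ and CD33, all fell, with log2 fold changes of -2.29, -2.28 and -0.90 (SE 0.31, 0.35 and 0.30; edgeR adjusted p 4.4e-05, 0.000123 and 0.0173). The call of CD33 was lost without siControl replicate 2 (-0.84), siSON replicate 1 (-0.62) or siSON replicate 2 (-0.83) and under cyclic loess normalization (-0.53). Among the markers too thinly counted to be tested, CD14 was higher in siSON (3, 5 and 5 counts in siControl, 6, 7 and 12 in siSON). ITGAM was lower (4, 1 and 21 counts in siControl, 0 in every siSON library), and CD79A overlapped between groups (means of 0.123 and 0.16 CPM). The part of leukocyte RNA in the BST1 values was not tested.

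Among the synthesis enzymes, the salvage gene NAMPT rose. NAMPT (ENSG00000105835; chromosome 7, 106248285 to 106286326, minus strand, 11 exons) was measured at 54.62, 48.35 and 47.46 CPM in the siControl libraries and 88.51, 77.6 and 83.08 CPM in the siSON libraries. All siSON libraries were above all siControl libraries, and replicate 1 was the highest in each group. The log2 fold change was 0.73 (SE 0.07), or 1.66-fold. NAMPT shares 8.69% of its exon length with AC007032.1, an antisense gene with at most 9 counts in any library. Of 8 annotated pseudogenes named after NAMPT or NMNAT1, 7 had 0 counts in every library, and NAMPTP1 had 23 to 47 counts per library, so few reads were assigned to copies of these genes.

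Promoter windows from RefSeq (GRCh38.p14), the 250 bases before the start annotated in RefSeq, were held for 7 of the 10 genes (CD38, SARM1, NAMPT, NMNAT1, NMNAT2, NMNAT3 and NADSYN1). These starts differ from the ends of the GENCODE gene spans printed in this report. The CD38 window thus reaches into the printed span of its gene, and the NAMPT window lies inside that of NAMPT. The windows of CD38, the surface enzyme with at most 2 counts in a library, and of NAMPT, the salvage enzyme with 3074 to 5137 counts in a library, are shown because they have the fewest and the most CG dinucleotides among the first listed starts of the 7 genes. Each is written 5′ to 3′ on the strand of its gene, with CG in capitals.
CD38 (chr4:15778078-15778327, plus strand): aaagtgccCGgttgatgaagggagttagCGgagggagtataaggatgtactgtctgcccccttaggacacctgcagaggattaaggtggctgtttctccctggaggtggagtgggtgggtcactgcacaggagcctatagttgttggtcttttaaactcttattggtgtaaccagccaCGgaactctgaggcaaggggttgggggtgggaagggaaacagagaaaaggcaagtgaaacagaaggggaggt
NAMPT (chr7:106284984-106285233, minus strand): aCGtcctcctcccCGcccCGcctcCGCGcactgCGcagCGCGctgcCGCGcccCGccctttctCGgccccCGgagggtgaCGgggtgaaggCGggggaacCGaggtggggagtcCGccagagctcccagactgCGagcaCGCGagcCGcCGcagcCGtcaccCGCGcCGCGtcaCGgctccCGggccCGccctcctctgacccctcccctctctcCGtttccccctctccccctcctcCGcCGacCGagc
CG reads the same on both strands and was found at least once in 93.9% of 35116 promoter windows of this length, with a median of 11 per window. CD38 holds 3, more than 22.9% of windows, and NAMPT holds 34, more than 93.2%. SARM1, NMNAT1, NADSYN1 and the first listed starts of NMNAT2 and NMNAT3 hold 23, 21, 29, 15 and 14. NMNAT3, at 0 counts, and NMNAT2, among the most abundant, thus have nearly the same number.

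The genes of the nicotinic acid branch were lower. NADSYN1 (ENSG00000172890; chromosome 11, 71453109 to 71524107, plus strand, 21 exons), the NAD synthetase, was measured at 87.05, 83.32 and 84.26 CPM in siControl and 27.33, 26.66 and 25.77 CPM in siSON. The libraries of each group lay within 4 CPM of one another, far less than the distance between the groups. Its log2 fold change was -1.67 (SE 0.06), leaving 31.3% of the control level. NAPRT (ENSG00000147813; chromosome 8, 143574785 to 143578649, minus strand, 13 exons) was counted thinly, with 205, 168 and 174 counts in siControl and 122, 69 and 78 counts in siSON. In CPM these were 2.938, 2.642 and 2.329 against 2.102, 1.338 and 1.534. The groups did not overlap, but the highest siSON library and the lowest siControl library were close. The log2 fold change of NAPRT was -0.66 (SE 0.20). That call was lost without siSON replicate 2 (-0.52, SE 0.21) and under cyclic loess normalization (-0.31, SE 0.19). NAPRT shares 27.8% and 9.48% of its exon length with the genes AC067930.5 and AC067930.6 on the other strand. AC067930.5 had at most 3 counts in any library, whereas AC067930.6 had 56, 60 and 58 counts in siControl and 80, 84 and 53 counts in siSON (log2 fold change 0.68, SE 0.24, edgeR adjusted p 0.0235). It was not called with library size alone as the scaling (0.49), nor without siControl replicate 1 (0.63), siControl replicate 3 (0.62) or siSON replicate 2 (0.54).

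Levels of different genes can be compared only per length, and the ratios below are given on that scale. They are ratios of messenger RNA, and the activity of the routes was not measured. The ratio of NAMPT to NADSYN1, each in RPKM, was 1.13, 1.04 and 1.01 in siControl and 5.82, 5.23 and 5.79 in siSON. The groups did not overlap, and the mean ratio went from 1.06 ± 0.0598 to 5.62 ± 0.333 (SD, n = 3 each). NAMPT exceeded NAPRT in RPKM 6.5 ± 0.383-fold in siControl and 17.5 ± 2.82-fold in siSON (SD, n = 3 each). NADSYN1 exceeded NAPRT 6.14 ± 0.638-fold in siControl and 3.14 ± 0.657-fold in siSON (SD, n = 3 each). These ratios restate the fold changes above on a per-length scale and carry the same dependence on the choice of genes. Their size, but not their change between groups, also depends on the length used. NADSYN1 is longer than NAMPT by exon union (16263 against 9049 bases) and shorter by principal transcript (2773 against 4582 bases). The near equality of NAMPT and NADSYN1 in siControl therefore holds for the exon unions only.

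The 3 NMNAT genes encode enzymes placed in the nucleus (NMNAT1), at the Golgi and in the cytosol (NMNAT2) and in mitochondria (NMNAT3). NMNAT2, which in axons opposes SARM1, was the most abundant of the 3 here although it is best known from neurons. NMNAT2 (ENSG00000157064; chromosome 1, 183248237 to 183418602, minus strand, 11 exons) was measured at 74.77, 63.76 and 64.7 CPM in siControl and 76.0, 69.43 and 70.78 CPM in siSON. The groups overlapped, and the log2 fold change was 0.09 (SE 0.07), with a sign that turned to -0.11 under scaling by library size alone and to -0.10 under cyclic loess normalization. NMNAT1 (ENSG00000173614; chromosome 1, 9943428 to 9985501, plus strand, 5 exons) was measured at 10.82, 11.21 and 13.16 CPM in siControl and 15.73, 15.78 and 17.9 CPM in siSON. Every siSON library was above every siControl library, replicate 3 was the highest of each group, and the log2 fold change was 0.49 (SE 0.10), or 1.4-fold. It was 0.29 (SE 0.10) under scaling by library size alone. The ratio of NMNAT1 to NMNAT2 in RPKM went from 0.271 ± 0.0456 to 0.356 ± 0.0358 (SD, n = 3 each), so NMNAT2 remained the more abundant in all 6 libraries.

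NMNAT3 (ENSG00000163864; chromosome 3, 139560180 to 139678017, minus strand) had 0 counts in all 6 libraries. With 3 counts over a group as the floor, that would allow up to 0.0154 CPM in siControl and 0.0175 CPM in siSON if its reads were counted like those of other genes. How the counting treated NMNAT3 could not be checked, so the 0 says only that the gene is listed at 0. The union of its annotated exons is 12983 bases, and of 794 protein-coding genes with at least that exon length 40 (5.04%) were at 0 in all 6 libraries, beside 19.5% of all 19951 protein-coding genes. Only 0.616% of that length is shared with the antisense gene AC097103.2, and 2.16% with the pseudogene AC046134.1.

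SARM1 (ENSG00000004139; chromosome 17, 28364356 to 28404049, plus strand, 9 exons) was measured at 37.28, 34.12 and 33.81 CPM in siControl and 18.99, 13.44 and 11.35 CPM in siSON. The groups did not overlap, and siSON replicate 1 was the highest of its group. Its log2 fold change was -1.26 (SE 0.16), leaving 41.7% of the control level, and without siSON replicate 1 it was -1.49 (SE 0.09). The value is uncertain because 39.7% of the exon length of SARM1 is shared with SLC46A1 on the other strand and the strand setting is not given in the sources used here. SLC46A1, the proton-coupled folate transporter, had 336, 323 and 462 counts in siControl and 436, 441 and 485 counts in siSON (log2 fold change 0.67, SE 0.13, edgeR adjusted p 0.000848). The ratio of SARM1 to NMNAT2 in RPKM went from 0.334 ± 0.0119 to 0.129 ± 0.0291 (SD, n = 3 each). Of 8 neuron markers, STMN2, RBFOX3, NEFL and NEFM were at 0 counts in all libraries. The summed level of the 8 was 96.1 to 101 CPM in siControl and 38.4 to 42.9 CPM in siSON, most of it from SYT1, which fell from 92.0 to 30.4 CPM (33.1% of control, edgeR adjusted p 3.4e-09). Of the 4 tested, SYT1 and SYP were lower, SNAP25 was higher and GAP43 was not called. SYP lost its call under cyclic loess (-1.16), and GAP43 was called lower under library size alone (-0.55). That sum fell alongside SARM1, and its part in the lower SARM1 level was not tested.

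NNMT (ENSG00000166741; chromosome 11, 114257787 to 114313285, plus strand, 5 exons) had the highest mean level of the 10 genes per kilobase of annotated exon union in both groups. NNMT had 29.17, 31.08 and 34.13 CPM in siControl and 62.67, 54.87 and 50.6 CPM in siSON. The groups did not overlap, and replicate 1 was the lowest in siControl but the highest in siSON. The log2 fold change was 0.83 (SE 0.09), or 1.78-fold. NNMT and NAMPT were higher by similar amounts, so the ratio of NAMPT to NNMT in RPKM was 0.518 ± 0.079 in siControl and 0.48 ± 0.0426 in siSON (SD, n = 3 each), and these groups overlapped.

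In siControl the order of levels per length was NNMT (10.8 ± 0.858 RPKM), NMNAT2 (9.45 ± 0.852), NAMPT (5.54 ± 0.431), NADSYN1 (5.22 ± 0.119), SARM1 (3.15 ± 0.172), NMNAT1 (2.54 ± 0.271), NAPRT (0.856 ± 0.0989) and BST1 (0.0905 ± 0.0671), each as RPKM with SD over 3 libraries, with CD38 and NMNAT3 at 0. NNMT overlapped NMNAT2 and NAMPT overlapped NADSYN1, and the other neighbours in that order did not overlap. In siSON the order was NNMT (19.2 ± 2.1 RPKM), NMNAT2 (10.1 ± 0.484), NAMPT (9.18 ± 0.603), NMNAT1 (3.57 ± 0.269), BST1 (3.57 ± 0.515), NADSYN1 (1.63 ± 0.048), SARM1 (1.31 ± 0.354) and NAPRT (0.539 ± 0.129). NMNAT2 overlapped NAMPT, NMNAT1 overlapped BST1 and NADSYN1 overlapped SARM1. By this length BST1 thus moved from below NAPRT to the level of NMNAT1. These lengths are unions of all annotated exons, which understates a gene with long, little used exons. For NADSYN1 the union is 16263 bases and the principal transcript 2773 bases. The same lengths are 2919 and 1867 bases for NNMT, 2980 and 1480 for BST1, and 4610 and 3781 for NMNAT1. The order, the rank of NADSYN1 in particular, and the match of BST1 with NMNAT1 therefore depend on the length used.

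**Figure D3:**
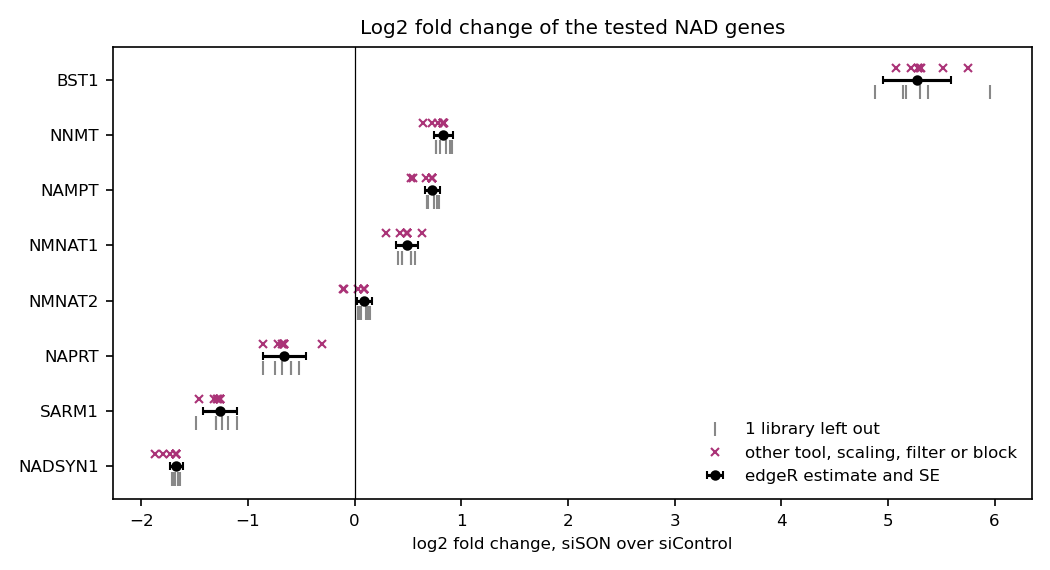
Log2 fold change (siSON over siControl) of the 8 tested NAD genes on the x axis; black points and bars are the edgeR estimate with its SE, grey ticks are the fits that each left out 1 library and purple crosses are the other tools, scalings, filters and the replicate block. All alternatives keep BST1 above 4.8 and NADSYN1 below -1.6, and the NMNAT2 values lie on both sides of 0.

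The genes differ in structure, which the choice of the 10 did not use. In its principal transcript NAPRT has 12 introns with a median length of 96.5 bases, 8 of them under 200 bases, and a GC content of 68.0%. Its median intron was longer than that of 0.654% of the genes tested that have introns, and its GC content was above that of 98.9% of genes tested. NADSYN1 has 20 introns with a median of 1194 bases and a GC content of 58.7%, and SARM1 has 8 introns with a median of 1402 bases, 3 of them under 200 bases, and a GC content of 55.3%. The 4 genes that were higher had GC contents between 36.3% (NAMPT) and 50.9% (NNMT) and median introns of 2130 (NAMPT), 4329 (NMNAT1), 3251 (BST1) and 9427.5 bases (NNMT). The medians over all genes tested were a GC content of 48.7% and a median intron of 1897.5 bases. Among these 7 genes the 3 that were lower had the highest GC contents and the shortest median introns, which is a description of 7 genes chosen with the contrast known. NMNAT2, tested but not called, had a GC content of 48.6% and a median intron of 2961 bases. Both values lie within the range of the 4 genes that were higher, so these traits did not set the higher genes apart from NMNAT2. Intron removal cannot be read from a count per gene and was not measured.

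The other genes of NAD metabolism were taken from lists written from general knowledge, with earlier results of these data known. Among genes that make or carry NAD precursors, the kynurenine pathway genes and the nucleotidase and transporter genes went both ways. Of 28 genes 20 were tested and 15 called (75.0%, beside 71.7% of all genes), 9 higher and 6 lower, with 8 higher and 10 lower under scaling by library size alone. Their median log2 fold change was -0.01. QPRT, which makes the mononucleotide that enters the nicotinic acid branch from tryptophan, fell from 2.94 ± 0.707 to 0.832 ± 0.0745 CPM (mean and SD of 3 libraries; log2 change -1.82, SE 0.22, edgeR adjusted p 1.77e-05). TDO2, the enzyme that opens the tryptophan ring, rose from 1.75 ± 0.373 to 4.98 ± 0.464 CPM (log2 fold change 1.51, SE 0.18, edgeR adjusted p 1.39e-05). KYAT1, a kynurenine aminotransferase, had a log2 fold change of -3.08 (SE 0.22, edgeR adjusted p 2.44e-07). The nucleoside transporter SLC29A1 fell from 163 ± 3.46 to 27.8 ± 2.23 CPM (log2 fold change -2.55, SE 0.07, edgeR adjusted p 6.78e-10). SLC12A8, reported as a carrier of nicotinamide mononucleotide, rose by 0.89 (SE 0.11, edgeR adjusted p 1.79e-05), and the nucleotidase NT5C2 rose by 0.87 (SE 0.06, edgeR adjusted p 3.53e-07). HAAO, which acts before QPRT in the tryptophan route, and the nicotinamide riboside kinase gene NMRK2 had 0 counts in all 6 libraries.

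Of 20 genes of NADP and nicotinamide nucleotide redox metabolism all 20 were tested and 17 called (85.0%), 9 higher and 8 lower, with 6 higher and 9 lower both under library size alone and under cyclic loess normalization. Their median log2 fold change was 0.08. IDH2, the mitochondrial NADP-dependent isocitrate dehydrogenase, fell from 109 ± 7.43 to 15.9 ± 3.58 CPM (mean and SD of 3 libraries; log2 change -2.78, SE 0.15, edgeR adjusted p 1.61e-07). NAXE, which takes part in the repair of hydrated NADH and NADPH, had -1.72 (SE 0.09, edgeR adjusted p 2.44e-08), and NUDT13 had -1.12 (SE 0.16, edgeR adjusted p 6e-05). ME1, the cytosolic malic enzyme, rose by 0.81 (SE 0.08, edgeR adjusted p 2.4e-06), MTHFD2L by 0.78 (SE 0.11, edgeR adjusted p 5.46e-05) and NADK2, the mitochondrial NAD kinase, by 0.67 (SE 0.10, edgeR adjusted p 0.000119).

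The PARP and ADP-ribose genes, not all of which encode enzymes that consume NAD, also went both ways. Of 33 PARP and ADP-ribose genes 27 were tested and 21 called (77.8%), 10 higher and 11 lower, with 8 higher and 14 lower under library size alone, and their median log2 fold change was -0.11. PARP1, the most active nuclear ADP-ribosyltransferase, was not called, at 132 ± 2.3 and 122 ± 9.26 CPM (mean and SD of 3 libraries; log2 change -0.11, SE 0.06, edgeR adjusted p 0.124). It was picked after its values were seen, and it was called lower under cyclic loess normalization (-0.38), library size alone (-0.31), a mean count of at least 50 (-0.17) and the replicate block (-0.11). PARP10, ADPRHL1 and PARP3 had log2 fold changes of -2.79, -2.28 and -1.96 (SE 0.15, 0.25 and 0.12; edgeR adjusted p 2.9e-08, 9.28e-06 and 9.09e-08). PARP8, TIPARP and ENPP1 rose by 1.08, 0.91 and 0.86 (SE 0.06, 0.08 and 0.07; edgeR adjusted p 6.34e-08, 9.4e-07 and 4.47e-07). ENPP1 is a surface pyrophosphatase that can cleave NAD outside the cell.

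Of the 7 sirtuins, NAD-dependent deacylases, all were tested and 5 called (71.4%), 2 higher and 3 lower, with a median log2 fold change of -0.14. SIRT2, a mainly cytosolic tubulin deacetylase, fell from 40.0 ± 1.96 to 9.53 ± 0.834 CPM (mean and SD of 3 libraries; log2 change -2.07, SE 0.09, edgeR adjusted p 5.8e-09). The mitochondrial SIRT3 had -1.38 (SE 0.11, edgeR adjusted p 6.19e-07) and the nuclear SIRT1 had -0.66 (SE 0.08, edgeR adjusted p 1.32e-05). SIRT6, a chromatin-bound sirtuin, rose from 16.8 ± 0.583 to 49.7 ± 1.6 CPM (log2 fold change 1.57, SE 0.07, edgeR adjusted p 7.23e-09), and the nucleolar SIRT7 rose by 0.83 (SE 0.07, edgeR adjusted p 1.46e-06). The split of 2 higher and 3 lower was the same under every scaling tried.

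Cyclic ADP-ribose and NAADP, products of the CD38 family, release calcium from stores. Of 11 genes of this release 9 were tested and 7 called (77.8%), 4 higher and 3 lower, with 2 higher and 4 lower under library size alone, and their median log2 fold change was 0.17. TPCN1 and TPCN2 encode the lysosomal cation channels: TPCN1 rose from 197 ± 2.25 to 260 ± 12.3 CPM and TPCN2 fell from 6.38 ± 0.312 to 1.61 ± 0.0601 CPM (SD, n = 3 each). Their log2 fold changes were 0.40 and -1.99 (SE 0.05 and 0.13; edgeR adjusted p 2.7e-05 and 1.32e-07), and under cyclic loess normalization TPCN1 was at 0.07 and no longer called. FKBP1A, a subunit that binds ryanodine receptors, rose by 0.67 (SE 0.07, edgeR adjusted p 9.95e-06). LSM12, an NAADP-binding protein gene, rose by 0.28 (SE 0.07, edgeR adjusted p 0.00462), and was at 0.09 and not called under library size alone. GJA1, the gene of connexin 43, a channel that can pass NAD out of the cell, had -0.52 (SE 0.05, edgeR adjusted p 3.39e-06).

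The methyl donor cycle supplies S-adenosylmethionine, the co-substrate of NNMT. Of 13 genes 12 were tested and 5 called (41.7%), 3 higher and 2 lower, and their median log2 fold change was -0.12. The count was 9 under cyclic loess normalization (4 higher, 5 lower) and 8 under library size alone (2 higher, 6 lower). Methionine synthase MTR had a log2 fold change of -0.34 (SE 0.07, edgeR adjusted p 0.00101). PEMT, MTRR and AHCYL2 rose by 0.65, 0.52 and 0.32 (SE 0.09, 0.07 and 0.08; edgeR adjusted p 5.27e-05, 3.61e-05 and 0.00428), and AHCYL2 was at 0.12 and not called under library size alone. MAT2A, the main S-adenosylmethionine synthetase gene outside liver, picked after its values were seen, was not called and varied widely within groups, at 163 ± 32.3 and 166 ± 36.1 CPM (SD, n = 3 each).

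**Figure D4:**
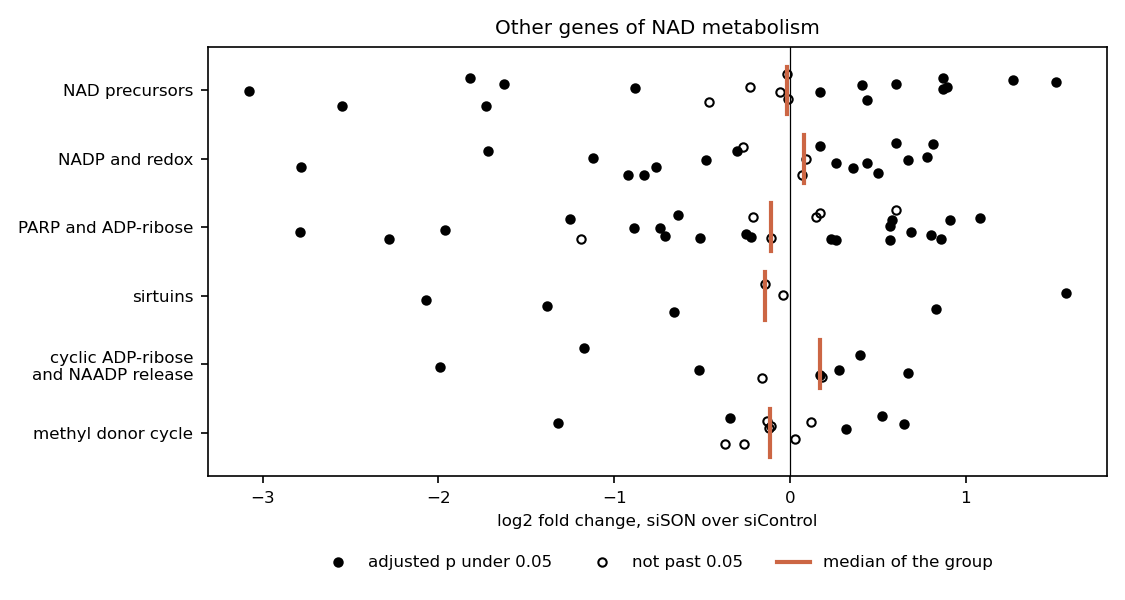
Log2 fold change (x axis, siSON over siControl) of each tested gene in 6 groups of NAD metabolism outside the 10 genes; filled points have an adjusted p under 0.05 in edgeR, open points do not, orange lines are group medians and vertical scatter is only for display. Each group has called genes on both sides of 0, and the medians lie between -0.14 and 0.17.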

How the data were processed

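RNA of 6 RPE-1 libraries (3 siControl, 3 siSON) was measured by mRNA-seq. The deposited table holds raw counts of reads for each gene as whole numbers. Per the submitters' processing notes, cutadapt 1.16, STAR 2.5.2a, featureCounts 1.6.2, DESeq2 1.28.1 and the build hg38 were used; annotation, strand setting and treatment of reads with several matches are not given in the sources used here. Columns were matched by library title. Gene positions, exons and GC content came from GENCODE release 29 (GRCh38), to which all 58735 identifiers matched.

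The tests used edgeR 4.0.16 under R 4.3.3, with filterByExpr (minimum count 10), TMM scaling, a robust quasi-likelihood fit on group, Benjamini-Hochberg adjustment over all 16591 genes tested, and calls at an adjusted p under 0.05. The SE is the absolute log2 fold change over the square root of F. CPM used TMM-scaled library sizes, and RPKM is CPM per kilobase of annotated exon union. The fit was tested on simulated data in which only a small share of genes changed, with rises and falls balanced. That test therefore does not check the scaling when most genes change, as they did here.

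The 10 genes and all lists were chosen with earlier results of these data known. The genes named are the 10, tested genes within 500 kb of BST1, genes that overlap the 10, the 3 profiles nearest to BST1 (prior count 2), and in each list up to 3 called rises and 3 called falls with a mean CPM of at least 1. Alternatives were DESeq2 1.42.0, limma-voom and cyclic loess (limma 3.58.1), RLE factors, library size alone, other count filters, a replicate block and leaving out each library. The 3-count floor was 0.0402 to 0.059 CPM per library, and library totals were 54572365 to 69764836. All 6 columns of the table were used. Some items are not reported here.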

Additional observations from a re-analysis of the deposited data

How the results depend on the processing

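Of the 8 NAD genes tested, the 7 called kept their direction under all 14 alternatives, and their calls were also kept except for NAPRT, which was not past 0.05 under cyclic loess normalization or without siSON replicate 2; the cause was not tested. The number called was 6 to 7 across the fits that left out 1 library and 6 to 7 across the others. The BST1 log2 fold change ran from 4.88 to 5.96 when 1 library was left out and from 5.08 to 5.75 otherwise. The median over genes of the change in log2 fold change was -0.20 with library size alone and 0.14 with cyclic loess. The median log2 fold change itself was -0.03 with TMM scaling, -0.22 with library size alone and 0.04 with cyclic loess. Relative to the shift with library size alone, NMNAT2 (-0.11) was not lower than most genes. The number of methyl donor cycle genes called, 5, was 9 under cyclic loess normalization, 8 under library size alone and 8 with a mean count of at least 50; the cause was not tested. Of 62 other named genes, 58 were called; 10 of these lost the call under at least 1 alternative, 3 not called became called, and KRT8 turned from 0.34 to -0.07 under cyclic loess, not called. The number of genes changed across the table ran from 11153 to 11783 when 1 library was left out and from 10226 to 12604 otherwise, and the share of calls that were higher, 49.1%, depended on the scaling (4441 higher and 7351 lower under library size alone).

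With the replicate block 12313 genes were called, and 7 of the 8 NAD genes. The deviations of same-numbered libraries correlated at a mean of 0.119 (0.0461 to 0.194), over 0.1 for 2 of 3 pairs. Those of differently numbered libraries correlated at a mean of -0.0594, and all 6 libraries correlated best with their own number. The main fit did not use the numbers as pairing, and whether they mark pairs was not settled. The BST1 log2 fold change with the block was 5.31. Depth limits CD38 and the control level of BST1, which rests on 6 to 34 counts per library. Whether the 0 of NMNAT3 is a matter of depth or of the counting was not tested.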
